A study of Oryza coarctata with 5 samples.

Results

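The response of *Oryza coarctata* (*Porteresia*), a salt-tolerant wild relative of rice, to 700 mM NaCl was described by setting 1 RNA-sequencing library of plants treated in that solution against 1 library of plants kept in water. These are 2 of the 5 libraries of the series, which also holds plants treated in 450 mM NaCl, plants submerged in water (written below as under water) and plants submerged in 450 mM NaCl (under salt water). All were made from total RNA of mature plants collected from natural conditions; the labels name no tissue, and neither the duration of treatment nor the number of plants per library is given in the sources used here. Transcripts were used if they reached an RPKM (a read count normalised to transcript length and library size) of at least 1 in the control or at 700 mM and were above 0 in all 5 libraries. This held for 71443 of the 152367 assembled transcripts (46.9%), which carried 95.5% of the summed RPKM of the control and 96.0% of that at 700 mM. There is 1 library per treatment, so the spread between plants is unknown, no test between treatments is possible and no p-value is given.

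The species grows in coastal and estuarine mud that is flooded by the tide, and it sheds salt through hairs on its leaves. Salt acts on a plant both by withholding water, which is met with compatible solutes, and by the toxicity of sodium, which is met by excluding the ion, moving it into the vacuole or secreting it. The transcripts carry assembly numbers and no gene names, and the files hold no sequences, so none of these functions could be assigned to a transcript and each is described by its length, level and behaviour in the libraries.

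Read totals, solved from the steps between RPKM values, were 56638113 for the control and 58431827 for 700 mM NaCl, against 59818916 to 78997383 in the other 3 libraries. The median transcript of the comparison rested on 107 reads in the control and 106 at 700 mM. The 700 mM library listed 140749 transcripts above 0, fewer than any other library (145610 to 146599). Near-identical copies of a gene, which are common in a polyploid such as this one, may share reads, so values of single transcripts are less certain than their read numbers imply. In bulk RNA, fewer cells of a type cannot be told apart from less RNA per cell.

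Most transcripts stood close to their control level at 700 mM NaCl. The log2 ratio of 700 mM to control, computed after adding 0.5 to both RPKM values, had a median of −0.080 and quartiles of −0.40 and 0.29, and 73.3% of transcripts lay within 1.5-fold. At 2-fold or more, 2777 transcripts (3.89%) were above and 2689 (3.76%) below their control level. At 4-fold or more the counts were 97 higher (0.136%) and 181 lower (0.253%). The limits are of size alone, and the added 0.5 makes ratios of low transcripts smaller than they are.

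The distribution was near symmetric at 2-fold and lopsided at its ends. Of the 2-fold differences 50.8% were in the higher direction; after median-of-ratios scaling, which moves the median ratio of −0.092 without the added 0.5 to 0 on the log2 scale, this share was 61.0%. At 8-fold, 4 transcripts were higher and 38 lower, and at 16-fold 1 was higher and 16 lower. A group of transcripts nearly missing from the 700 mM library contributed to this end. In 51 transcripts the RPKM at 700 mM was at least 10 times lower than in every other library, and 34 of the 181 transcripts at 4-fold lower belonged to them. Another 12 of the 181 stood at least 10 times higher in the control than in any other library. Without both groups 135 transcripts were lower at 4-fold. Both groups hold only transcripts lower at 700 mM, so leaving them out could not change the 97 higher ones. Of these 97, 1 stood at least 10 times higher at 700 mM than in any other library.

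The 2-fold limit divides a continuous range. Just inside it on the higher side, Pc_TC029846 went from 2.25 RPKM in the control to 4.99 at 700 mM. Just outside, Pc_TC104287 went from 2.01 to 4.53. On the lower side Pc_TC146584, at 3.07 in the control and 1.29 at 700 mM, was just inside, and Pc_TC072072, at 1.69 and 0.597, was just outside. These pairs differ from each other by far less than their counting intervals: the ratio of Pc_TC104287 was 2.25 with a 95% interval of 1.58 to 3.24. All intervals in the text are for counting error and say nothing of the spread from plant to plant.

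How far transcripts departed from their control level depended on how strongly they were expressed. Between a mean RPKM of 1 and 2 the interquartile range of the log2 ratio was 0.71, and 3.82% of the 21154 transcripts were 2-fold higher and 3.85% lower. Between 10 and 50 the range had narrowed to 0.48, with 1.99% of 11496 transcripts higher and 1.59% lower. It was narrowest between 50 and 100, at 0.42, where 1.18% of 1524 transcripts were higher and 0.98% lower. Above that level it widened again, to 0.45 between 100 and 500 (786 transcripts) and 0.65 at 500 and above (55 transcripts).

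The spread was larger than counting error at every level. Counting error alone would give an interquartile range of 0.30 between RPKM 1 and 2, 0.078 between 10 and 50 and 0.012 at 500 and above. The measured range at 500 and above came from transcripts with a median of 51453 reads in the control and 62540 at 700 mM. Of all 71443 transcripts, 54.6% lay beyond the 95% counting interval of no difference. All 5466 called at 2-fold did so too, but the call rule fixed this in advance. An RPKM of at least 1, the added 0.5 and lengths of at least 200 nt leave no room for a call within that interval. Differences between plants, between library preparations and between treatments cannot be told apart with 1 library each. The 7365 transcripts with a mean below 1 had a range of 1.24, but they had to reach RPKM 1 in 1 library while averaging below it, which leaves out equal pairs.

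The centre of the ratios also moved with the level. The median log2 ratio was −0.058 between RPKM 1 and 2 and −0.083 between 2 and 5, lowest above RPKM 1 at −0.12 between 5 and 10, and then −0.083 between 10 and 50, −0.028 between 50 and 100, 0.054 between 100 and 500 and 0.21 at 500 and above. Of the 55 most strongly expressed transcripts 4 (7.27%) were 2-fold higher and 0 lower.

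**Figure D1:**
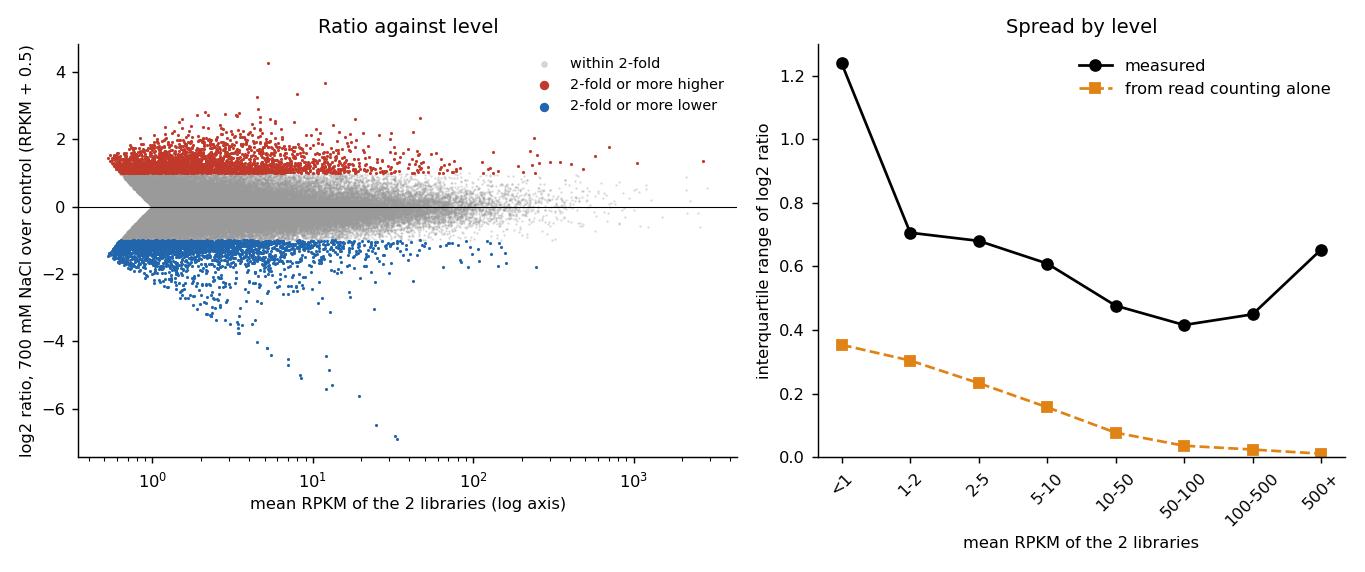
Left, the log2 ratio of 700 mM NaCl to control (RPKM + 0.5) of 71443 transcripts against their mean RPKM on a log axis, with 2777 transcripts at 2-fold or more higher in red and 2689 lower in blue. Right, the interquartile range of that ratio by level, measured (black) and from read counting alone (orange); the measured range is lowest between RPKM 50 and 100, at 0.42, and rises to 0.65 at 500 and above.

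Called transcripts were shorter than transcripts overall. The median length, solved from the RPKM steps, was 411 nt for the 2-fold higher and 411 nt for the 2-fold lower transcripts, against 641 nt for all 71443. The difference was also present at most matched levels: between RPKM 1 and 2 the medians were 373 nt for both higher and lower transcripts against 553 nt for all at that level, and between 10 and 50 they were 779 nt and 922 nt against 1145.5 nt. It did not hold in every range: between 50 and 100 the 15 lower transcripts had a median of 1805 nt against 1457 nt for all, and at 500 and above the 4 higher ones had 1653 nt against 1176 nt. A short transcript collects fewer reads at the same RPKM; the part of counting error in this difference of length was not tested.

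The largest rises were of transcripts close to silent in the control. The 10 with the largest ratio stood between 0.063 and 1.28 RPKM in the control and between 3.65 and 22.4 at 700 mM, with log2 ratios of 2.72 to 4.28. In all 10, 700 mM was the highest of the 5 libraries and 450 mM lay between the control and 700 mM. Choosing the largest ratios of 700 mM to control favours both, so neither is a separate sign of a graded response. They ranged from 244 to 2056 nt in length.

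Pc_TC104448 (1116 nt) had the largest ratio. It stood at 0.063 RPKM in the control (4 reads), 1.63 and 10.4 in 450 and 700 mM (681 reads at 700 mM), 0.079 under water and 0.371 under salt water. Its RPKM was 165-fold higher at 700 mM than in the control (95% interval 64.2 to 607), and it was near 0 in both libraries without salt.

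Pc_TC037465 (1539 nt) rested on the most reads of the 10. It stood at 1.28 RPKM in the control (112 reads), 7.20 and 22.4 in 450 and 700 mM (2018 reads at 700 mM), 3.08 under water and 2.79 under salt water. Its 700 mM value was 17.5-fold above the control (14.4 to 21.3). Unlike Pc_TC104448, it was not higher under salt water than under water.

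Pc_TC079114 (380 nt) was the only one of the 10 that was almost as high at 450 mM as at 700 mM. Its RPKM was 1.02 in the control, 13.5 and 15.0 in 450 and 700 mM, 2.13 under water and 8.26 under salt water. Every library with salt was thus above both libraries without it. Pc_TC065940 (244 nt) had a like order at a lower level, with 0.434 RPKM in the control, 3.29 and 8.56 in 450 and 700 mM, 0.104 under water and 2.35 under salt water.

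Pc_TC002983 (2056 nt), the longest of the 10, stood at 0.155 RPKM in the control, 1.24 and 4.07 in 450 and 700 mM, 0.111 under water and 1.09 under salt water. Its 489 reads at 700 mM against 18 in the control gave a 26.3-fold difference (16.5 to 44.8). It too was higher in each library with salt than in both without. The other 5 had control values of 0.132 to 0.690 RPKM: Pc_TC032767 was 12.2-fold higher at 700 mM (8.79 to 17.5), Pc_TC085941 12.8-fold (8.98 to 18.8), Pc_TC083851 14.7-fold (8.85 to 26.1), Pc_TC113968 19.2-fold (9.10 to 48.8) and Pc_TC040725 27.6-fold, the last from only 2 reads in the control (7.30 to 234). Between the submerged libraries, 7 of the 10 were higher with salt than without, against 50.3% of all 71443 transcripts. Of the 7, Pc_TC113968 had 8 reads in each of these libraries, and Pc_TC040725 had 3 without salt and 6 with it. So few transcripts and reads do not set the count apart from that share.

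The largest falls were of well-expressed transcripts that were almost without reads at 700 mM. The 10 with the lowest ratio stood between 14.0 and 66.5 RPKM in the control, and none exceeded 0.367 RPKM or 13 reads at 700 mM. Their log2 ratios ran from −6.90 to −4.70. In 9 of the 10 the other 3 libraries were all above 5 RPKM, so that 700 mM alone was low.

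Pc_TC150201 (821 nt) had the lowest ratio. It stood at 66.5 RPKM in the control (3094 reads), 114 and 0.063 in 450 and 700 mM (3 reads at 700 mM), 133 under water and 51.1 under salt water. The control exceeded 700 mM 1064-fold (364 to 5162). Pc_TC014070 (2606 nt), with the most reads of the 10, had 64.7 RPKM in the control (9547 reads), 278 and 0.072 in 450 and 700 mM (11 reads at 700 mM), 309 under water and 126 under salt water.

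Both were at their highest under water and higher at 450 mM than in the control, the opposite of their place at 700 mM. The same held for Pc_TC016641 (1810 nt), with 49.8 RPKM in the control, 173 and 0.057 in 450 and 700 mM, 180 under water and 77.1 under salt water. Pc_TC107425 (1268 nt) and Pc_TC097785 (596 nt) were also higher at 450 mM (69.6 and 52.3 RPKM) than in the control (16.6 and 14.0), with 2 reads each at 700 mM. Of the 10, 8 stood higher at 450 mM than in the control. Over all 71443 transcripts the median log2 ratio of 450 mM to control was −0.092, with quartiles of −0.35 and 0.15. No step between 450 and 700 mM was sampled, and whether the near absence belongs to the dose or to this library cannot be told apart.

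Pc_TC137557 (726 nt) was the exception among the 10. It stood at 38.3 RPKM in the control (1575 reads), 1.63 and 0.283 in 450 and 700 mM (12 reads at 700 mM), 1.59 under water and 1.01 under salt water. It was high in the control alone, so its 135-fold difference (77.3 to 263) sets the control apart from all 4 treatments and not 700 mM from the rest. Pc_TC133856 (607 nt) fell between these patterns, at 24.8 RPKM in the control, 15.4 and 0.367 in 450 and 700 mM, 20.3 under water and 5.17 under salt water.

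**Figure D2:**
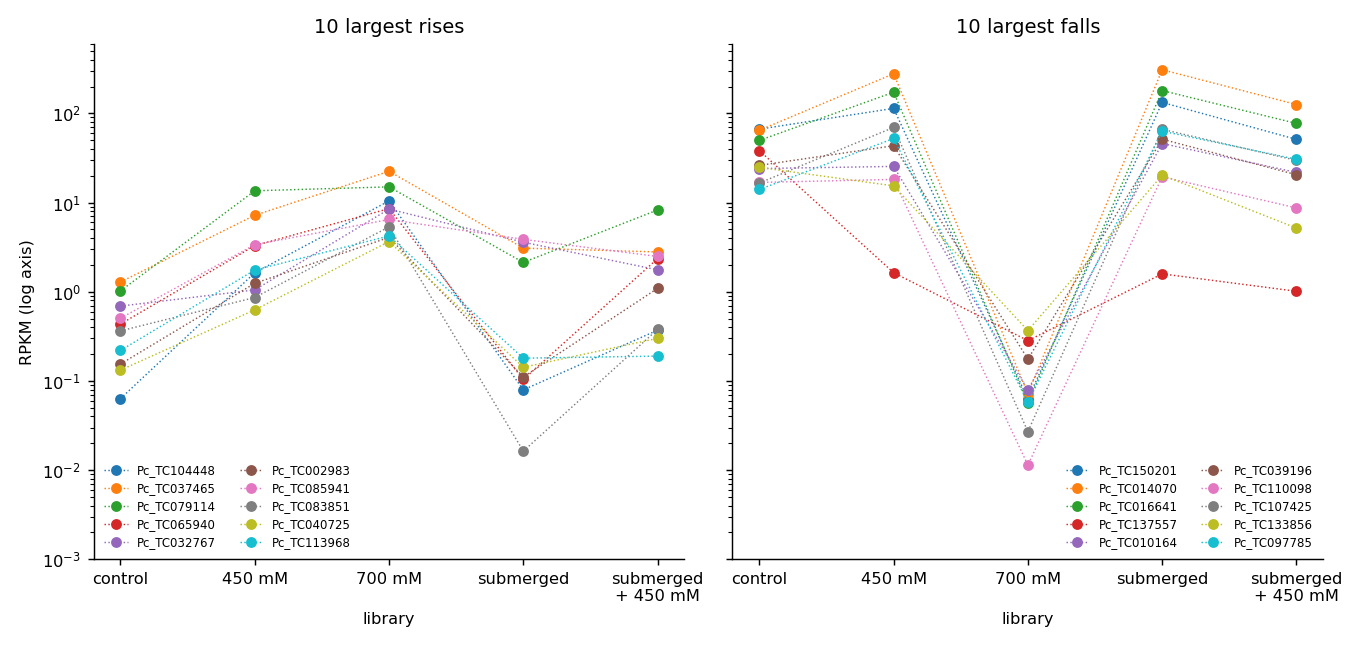
RPKM (log axis) of the 10 transcripts with the largest rise (left) and the 10 with the largest fall (right) in each of the 5 libraries; each colour is 1 transcript, each point 1 library, and dotted lines only join points of a transcript. On the left 700 mM is the highest library for all 10, which their choice by the rise at 700 mM favours. On the right none exceeds 0.367 RPKM at 700 mM while 9 of 10 stay above 5 in the other treatments.

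Among transcripts with a mean RPKM of at least 10 (13861), 270 were 2-fold higher at 700 mM and 209 lower. After Pc_TC037465, the largest rise in this range was that of Pc_TC052110 (212 nt), with 12.5 RPKM in the control, 23.7 and 81.0 in 450 and 700 mM, 0.657 under water and 5.80 under salt water. Pc_TC026935 (451 nt) had 4.78, 8.08, 31.6, 1.18 and 2.25 RPKM in the same order, a 6.62-fold difference between 700 mM and control (5.47 to 8.07). Pc_TC025924 (875 nt) had 3.89, 7.66, 23.0, 1.17 and 2.0 RPKM. All 3 were higher at each salt step and lowest under water. Pc_TC125942 (212 nt) differed in this, with 3.16 RPKM in the control, 7.41 and 17.8 in 450 and 700 mM, 5.19 under water and 6.43 under salt water.

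Submergence separated the higher from the lower transcripts in the opposite direction to salt. The 270 higher transcripts at mean RPKM of at least 10 had median levels of 9.40 RPKM in the control, 14.3 and 24.1 in 450 and 700 mM, 3.15 under water and 8.22 under salt water. For the 209 lower ones the medians were 26.1, 17.0, 9.31, 60.8 and 37.6 RPKM in the same order. All 13861 had medians between 20.2 and 21.6 RPKM in every library. Against the control, the median log2 ratio of the 270 was 1.22 at 700 mM, 0.48 at 450 mM and −1.66 under water, and that of the 209 was −1.24, −0.64 and 1.26. All 3 ratios share the control library.

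The contrast of salt under water shares no library with that of 700 mM against control, since it sets plants under salt water against plants under water. Over all 71443 transcripts its median log2 ratio was 0.0034, with 50.3% above 0, and 4.85% were 2-fold higher and 2.29% lower. The 2777 transcripts higher at 700 mM had a median of 0.35 in it, with 74.9% above 0; 516 of them (18.6%) were 2-fold higher and 32 (1.15%) lower. The 2689 transcripts lower at 700 mM had a median of −0.52, with 18.9% above 0; 37 (1.38%) were 2-fold higher and 495 (18.4%) lower. The direction at 700 mM was thus shared more often than over all transcripts, at a lower dose and in submerged plants.

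The shift was larger in transcripts with a mean RPKM of at least 10. At mean RPKM of at least 10, the 270 higher transcripts had a median of 1.17 in this contrast (quartiles 0.66 and 1.80), and 250 of them (92.6%) were above 0, against 61.6% of all 13861. The 209 lower transcripts had a median of −0.76 (−1.02 and −0.41), and 14 of them (6.70%) were above 0. At mean RPKM of at least 100 the direction was not shared more often by the higher transcripts. There 16 of 23 (69.6%) were above 0, against 78.7% of all 841, although their median was 1.55 against 0.34. Of the 11 lower transcripts at that level 0 were above 0. Across transcripts the log2 ratios of both contrasts had a Pearson r of 0.44 over all 71443 and 0.63 over the 13861. These describe transcripts of 4 libraries, which are not independent replicates; the points share transcript length and level.

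**Figure D3:**
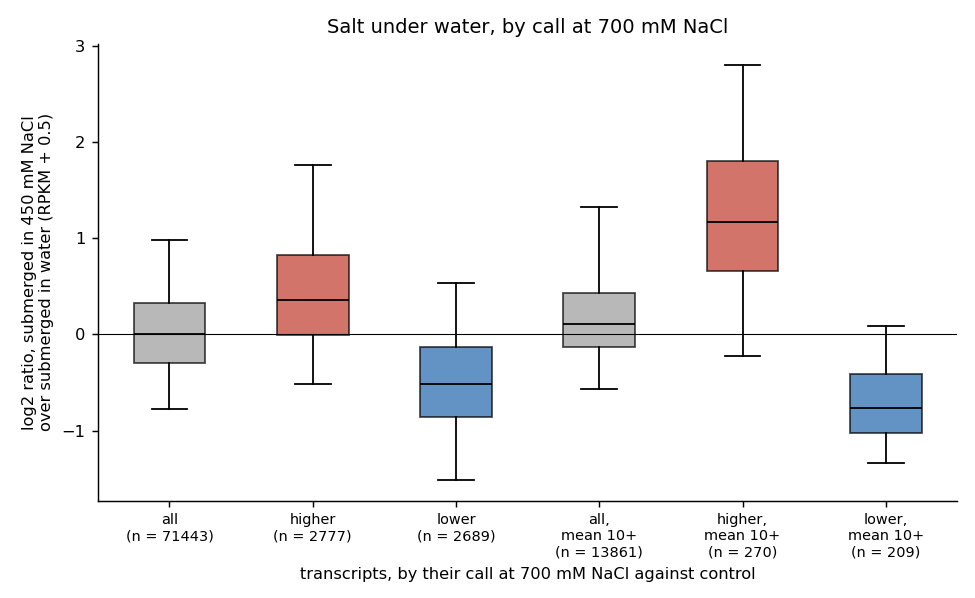
Log2 ratio of plants under salt water to plants under water (RPKM + 0.5) for transcripts grouped by their call at 700 mM NaCl against control, over all levels (left 3 boxes) and at mean RPKM of at least 10 (right 3). Lines in boxes are medians, boxes are quartiles and whiskers the 5th and 95th percentiles; the higher groups lie above and the lower groups below the group of all transcripts, with medians of 1.17 and −0.76 at mean RPKM of at least 10.

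At a mean RPKM of at least 100 (841 transcripts), 23 were 2-fold higher and 11 lower at 700 mM. The 23 fell into distinct profiles, a division made after their values were seen and described here without a test. In 15 of them 450 mM lay above the control, at a median of 144% of the control level, and 700 mM at 247%. All 15 were low under water, at 0.254% to 42.9% of control (median 10.2%), and all 15 were higher in submergence with salt than without it, 14 of them at least 2-fold. Of all 841, 78.7% were higher in submergence with salt than without it, and 19.7% were so at least 2-fold. The median log2 ratio of under water to control over all 841 was −0.56.

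Pc_TC066689 (1032 nt) had the largest ratio of the 15. It stood at 92.9 RPKM in the control, 203 and 384 in 450 and 700 mM, 15.9 under water and 33.1 under salt water, and its 4.13-fold difference (4.01 to 4.25) moved it from rank 950 in the control to rank 96 among the 71443. Pc_TC066694, of the same length and close in number, had the same order at a higher level, with 605, 876, 1497, 57.3 and 196 RPKM. Whether these are copies of 1 gene that share reads cannot be settled without their sequences.

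Pc_TC032126 (728 nt) stood at 128 RPKM in the control, 203 and 372 in 450 and 700 mM, 5.69 under water and 55.6 under salt water. Pc_TC030583 (990 nt) had 109, 162, 344, 11.1 and 38.0 RPKM in the same order. Pc_TC004572 (2710 nt) had 64.2, 82.5, 201, 7.88 and 26.2 RPKM. In these 3 the order of the libraries was the same from highest to lowest: 700 mM, 450 mM, control, under salt water, under water.

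In the remaining 8 of the 23, 450 mM lay below the control, at 38.8% to 78.3% of its level, while 700 mM stood at 204% to 346%. Under water they stood at 65.7% to 82.2% of the control and under salt water at 54.2% to 79.7%, so 700 mM alone was high. The 8 were Pc_TC035092, Pc_TC054490, Pc_TC000919, Pc_TC036386, Pc_TC009959, Pc_TC069488, Pc_TC044796 and Pc_TC014510. Pc_TC035092 (2875 nt) had 1532 RPKM in the control, 595 and 3904 in 450 and 700 mM, 1078 under water and 847 under salt water. Pc_TC054490 (510 nt) had 316, 138, 1095, 246 and 201 RPKM in the same order. Relative to the control, the levels of these 8 under water thus covered a narrower range than those of the 15 (0.254% to 42.9%).

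The 11 lower transcripts formed 1 profile along the salt series. All 11 were below the control at 450 mM (50.8% to 80.9% of control) and lowest of the 5 libraries at 700 mM (29.1% to 49.5%). Under water 10 of the 11 were above the control, 8 of them more than 2-fold, and all 11 were lower in submergence with salt than without. Of all 841, 21.3% were lower in submergence with salt than without. Over all 841 the log2 ratio to the control had quartiles of −0.024 and 0.26 at 450 mM. Under water the quartiles were −1.32 and −0.034. Pc_TC009205 (2535 nt) stood at 381 RPKM in the control, 246 and 111 in 450 and 700 mM, 1153 under water and 734 under salt water, and went from rank 84 to rank 729. Pc_TC040098 (412 nt) had 221, 130, 64.7, 618 and 340 RPKM, Pc_TC085927 (385 nt) 245, 173, 76.2, 739 and 480, and Pc_TC026833 (1920 nt) 165, 83.6, 53.7, 501 and 239. Pc_TC079208 (714 nt) had 188, 107, 70.1, 283 and 175 RPKM and, unlike these 4, stood below the control under salt water.

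**Figure D4:**
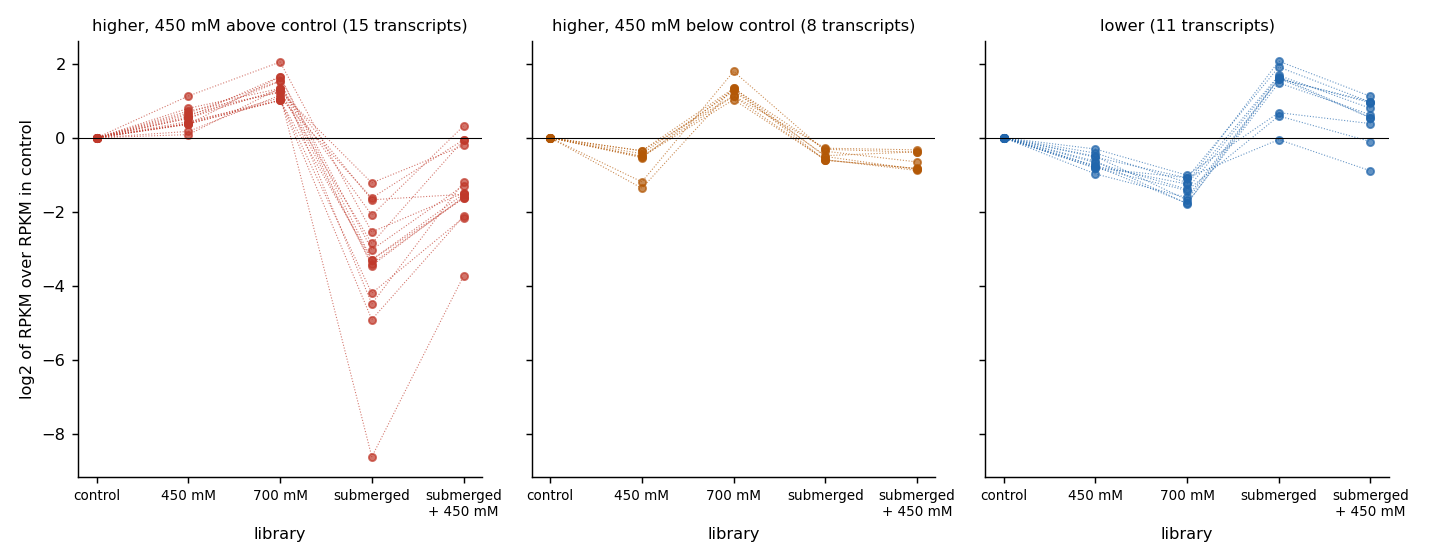
Log2 of RPKM over RPKM in the control in each of the 5 libraries for the 34 transcripts with a mean RPKM of at least 100 and a 2-fold difference at 700 mM NaCl; each dotted line joins 1 transcript. The 15 at left are above the control at both salt doses, low under water and at 7.49% to 125% of control under salt water. The 8 in the middle are high at 700 mM alone, and the 11 at right are low at both doses and mostly high in submergence.

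The most abundant transcripts took a larger share of the transcriptome at 700 mM. The 100 with the highest mean RPKM of both libraries held 9.31% of the summed RPKM in the control and 10.9% at 700 mM, with 10.2% at 450 mM, 6.91% under water and 7.83% under salt water. Their median log2 ratio was 0.19 (quartiles −0.10 and 0.50); 68 were above 0, 6 were 2-fold higher and 0 were 2-fold lower, against 3.89% and 3.76% of all transcripts. A high value at 700 mM raises the mean by which they were chosen. The choice by the control and 700 mM also tends to lower their share in the libraries not used for it. The 100 most abundant in the control alone had a median of 0.045, 2 were 2-fold higher, and they held 9.44% of the summed RPKM in the control and 10.3% at 700 mM.

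The order at the top was largely kept. Of the 10 most abundant transcripts in the control 8 were among the 10 most abundant at 700 mM, and of the 100 most abundant 75 were. Pc_TC038631 (881 nt) held rank 1 in the control, with 3139 RPKM, and rank 7 at 700 mM, with 2073; it stood at 3272 at 450 mM, 6700 under water and 4297 under salt water. Pc_TC035092 went from rank 8 to rank 1. Pc_TC001301 (2366 nt) went from rank 3 to rank 2, with 2323 RPKM in the control, 1719 and 3442 in 450 and 700 mM, 1752 under water and 1783 under salt water.

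Some of the leading transcripts hardly differed, and others were higher at 700 mM but under 2-fold. Pc_TC000708 (1683 nt) held rank 5 in both, with 2096 RPKM in the control and 2369 at 700 mM, a ratio of 1.13 (1.12 to 1.14). Pc_TC117680 (498 nt) stood at 2691 and 2348 RPKM and Pc_TC029576 (539 nt) at 2292 and 2029. Pc_TC100998 (390 nt), at rank 3 at 700 mM, stood at 1478 RPKM in the control, 1935 and 2744 in 450 and 700 mM, 92.9 under water and 442 under salt water. Pc_TC021886 (3063 nt), at rank 4 at 700 mM, had 1754, 2388, 2476, 261 and 1141 RPKM in the same order. Both shared the order of libraries of Pc_TC032126 while staying under 2-fold at 700 mM.

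The 6 of the 100 that were 2-fold higher were Pc_TC054490, Pc_TC000830, Pc_TC035092, Pc_TC066694, Pc_TC069488 and Pc_TC000919. Pc_TC000830 (2274 nt) stood at 296 RPKM in the control, 425 and 850 in 450 and 700 mM, 27.0 under water and 97.9 under salt water, a 2.88-fold difference between 700 mM and control (2.84 to 2.91). Pc_TC069488 (274 nt) had 241, 179, 577, 172 and 185 RPKM. They thus came from both profiles: 450 mM was above the control in Pc_TC000830 and Pc_TC066694 and below it in the other 4.

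The largest declines in this group stayed within 2-fold. Pc_TC038633 (565 nt) had the lowest log2 ratio, −0.73, with 713 RPKM in the control, 565 and 428 in 450 and 700 mM, 2152 under water and 1320 under salt water. Pc_TC001241 (734 nt) had 1485, 1572, 979, 3164 and 2039 RPKM in the same order, and Pc_TC004232 (735 nt) had 1308, 1377, 874, 2695 and 1755. With Pc_TC038631 they had log2 ratios at 700 mM between −0.60 and −0.58, were slightly above the control at 450 mM and were highest under water. Pc_TC147856 (549 nt) had 569, 509, 381, 716 and 652 RPKM.

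**Figure D5:**
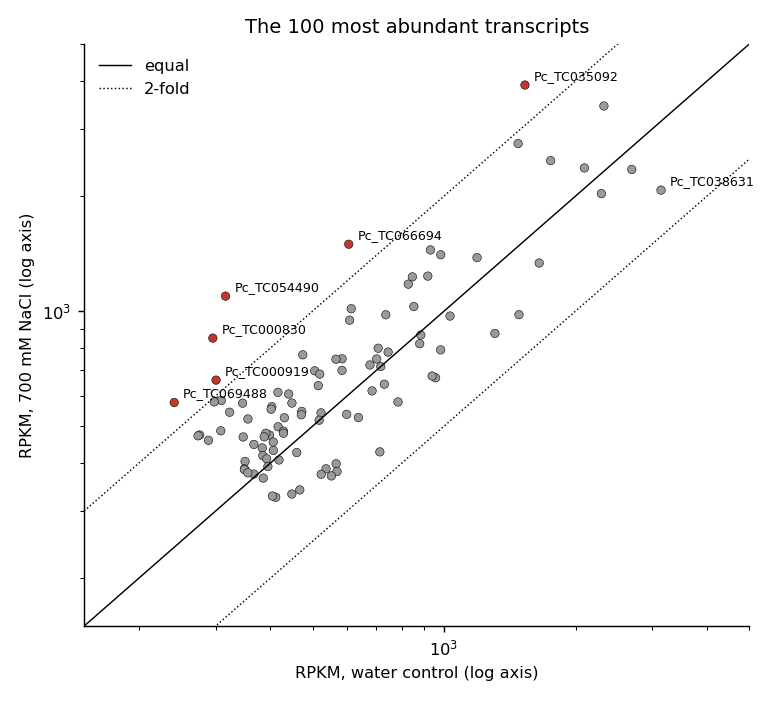
RPKM at 700 mM NaCl against RPKM in the water control, both on log axes, for the 100 transcripts with the highest mean of both libraries; the solid line marks equal values and dotted lines 2-fold. The 6 transcripts at 2-fold or more higher are in red and named, none lies below the lower dotted line, and Pc_TC038631 is the most abundant in the control.

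In terms of RPKM itself, a few transcripts carried much of the difference on the higher side. Over the 71443 transcripts, 31333 were higher at 700 mM by a summed 90853 RPKM and 40110 were lower by a summed −91071 RPKM. The 10 largest rises made up 9.95% of the summed rise and the 10 largest falls 4.43% of the summed fall. For the 100 largest the shares were 25.3% and 13.7%. Pc_TC035092 alone gained 2372 RPKM, Pc_TC100998 1266 and Pc_TC001301 1119, while the largest loss was that of Pc_TC038631 (−1066 RPKM), followed by Pc_TC001241 (−505) and Pc_TC004232 (−433). Transcripts at 2-fold or more supplied 21.2% of the summed rise and 12.9% of the summed fall, so most of the redistribution lay in smaller differences. RPKM is relative to the library, so a gain in some transcripts lowers the others without a change in their amount.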

How the data were processed

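Values were RPKM per assembled transcript, which the authors calculated after filtering reads with NGS QC Toolkit and mapping them to *Porteresia* transcripts, per the series text; the mapping program, its version and the treatment of multiply mapping reads are not stated in the text used here. RPKM was used as deposited. Whole reads, lengths and read totals were solved from RPKM steps (minimum length 200 nt, all 5 values within 0.001 of a whole read) for all 71443 transcripts and served for counting intervals, lengths and depth; a solution can be a divisor of the true length and reads. Recovered reads summed to 99.1% of each total. The recovery and the calling rule were tested on simulated data. Intervals of ratios are exact 95% Clopper-Pearson intervals. Calls used log2 ratios of RPKM + 0.5 with limits of 1 and 2. Named transcripts were the 10 largest rises and falls, the 5 each way at mean RPKM of at least 10 and 100 and among the 100 most abundant, the 5 most abundant in each library, the 3 largest differences in RPKM each way, and those nearest the 2-fold limit. The transcripts, limits and rules were chosen with earlier results of these data known. Alternatives were other pseudocounts, filters, scalings, a counting-error limit and leaving out transcripts bound to 1 library. Python 3.11.15, numpy 2.4.6, pandas 2.3.3, scipy 1.17.1 and matplotlib 3.10.9 were used.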

Additional observations from a re-analysis of the deposited data

How the results depend on the processing

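The pseudocount and the filter moved the counts most. In the order higher and lower at 2-fold, then higher and lower at 4-fold, the 2777, 2689, 97 and 181 became 4817, 4946, 594 and 649 when 0.1 was added in place of 0.5. They became 1386, 1276, 35 and 89 when 1 was added, and 844, 724, 61 and 88 among transcripts reaching RPKM 5. With transcripts at 0 in some library kept, 694 were lower at 4-fold. Median-of-ratios scaling gave 3481 higher and 2221 lower at 2-fold, 61.0% of them higher. All counts were as reported when limited to differences beyond counting error. That setting is no check, since the call rule already leaves out differences within it. The median log2 ratio, with its lower and upper quartile, was −0.090, −0.46 and 0.33 with a pseudocount of 0.1, −0.070, −0.34 and 0.25 with 1, −0.058, −0.35 and 0.25 with no filter, −0.093, −0.36 and 0.21 with a filter at RPKM 5, 0, −0.32 and 0.36 after median-of-ratios scaling, and −0.073, −0.39 and 0.29 with equal sums of RPKM. With transcripts at 0 kept the quartiles were −0.41 and 0.30. At mean RPKM below 1 the median of −0.19 became −0.27 and −0.14 with pseudocounts of 0.1 and 1, −0.026 with no filter and −0.14 after median-of-ratios scaling. The 100 most abundant chosen by the control alone had a median of 0.045, 2 at 2-fold higher, and 9.44% and 10.3% of the summed RPKM in control and at 700 mM; the 1000 most abundant by mean had 0.049, 23, 27.5% and 29.9%. The 57 named transcripts kept their sign under all 4 settings tried on them (228 of 228 values), and 212 values stayed on the same side of 2-fold. The kept signs are no check. A pseudocount cannot reverse a sign, and the scalings moved ratios by less than the smallest one named, −0.18 in Pc_TC029576. Leaving out transcripts bound to 1 library by at most 1 read changed no count by more than 1.5 times, nor did leaving out those 10 times apart, a setting added after seeing the data. The latter leaves out only transcripts lower at 700 mM, so it could not change the higher counts. The cause of these shifts was not tested. No paired analysis was possible because each treatment has 1 library. Depth limits transcripts near RPKM 1 most, where the median stood at about 43 reads in the control.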

Other observations

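Another 2021 transcripts reached RPKM 1 in the control or at 700 mM NaCl but were at 0 in at least 1 library and lie outside the comparison. Of these 547 were 2-fold higher and 899 lower at 700 mM, with 27 and 513 at 4-fold. The filter fixed many of the 2-fold calls. A transcript at 0 at 700 mM had to reach RPKM 1 in the control and could only be lower, which covers 789 of the 899. Likewise the 71 at 0 in the control could only be higher. Among the 2021, a value of 0 was found for 71 in the control, 470 at 450 mM, 789 at 700 mM, 1223 under water and 751 under salt water. Among those at 0 at 700 mM, 52 had an RPKM of at least 10 in the control, while 0 of those at 0 in the control had that level at 700 mM. In 450 transcripts 700 mM was the only library at 0, and in 28 the control was. The 450 had median levels of 2.16 RPKM in the control, 5.96 in 450 mM, 6.23 under water and 2.13 under salt water.

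Transcripts low in a single library were also counted for the other treatments. Among the 71443, the RPKM was at least 10 times lower than in every other library for 2 transcripts in the control, 5 at 450 mM, 51 at 700 mM, 229 under water and 9 under salt water. Where all other libraries were at RPKM 10 or more, 8 such transcripts were found at 700 mM and 9 under water. The 51 at 700 mM had median levels of 2.98 RPKM in the control, 9.47 and 0.057 in 450 and 700 mM, 9.75 under water and 3.07 under salt water, an order of the other 4 libraries like that of the 450.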
